A study of Mus musculus with 90 samples.

Results

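The 6 gluconeogenic enzyme genes Pck1, Pck2, G6pc, Fbp1, Pcx, and Slc37a4 were followed through 54 liver RNA libraries, each from 1 mouse, as 6 of the 24308 gene symbols in the deposited RPKM table (read numbers divided by transcript length and library depth). The members were named by symbol, by no rule on their values but with earlier results of these data known. Each was read at whichever of its RefSeq IDs had the highest mean. These IDs were NM_011044 for Pck1, NM_028994 for Pck2, NM_008061 for G6pc, NM_019395 for Fbp1, NM_001162946 for Pcx, and NM_001293631 for Slc37a4. In the liver, gluconeogenesis makes glucose from lactate, alanine, and glycerol between meals. Pyruvate carboxylase (Pcx) turns pyruvate into oxaloacetate in mitochondria. Phosphoenolpyruvate carboxykinase turns oxaloacetate into phosphoenolpyruvate in the cytosol (Pck1) or in mitochondria (Pck2). Fructose bisphosphatase (Fbp1) acts near the end of the path. The transporter Slc37a4 then carries glucose phosphate into the endoplasmic reticulum, where the catalytic subunit of glucose-6-phosphatase (G6pc) releases free glucose. Glucocorticoids, which act through the glucocorticoid receptor (GR, gene Nr3c1), and glucagon are known to raise this program, and insulin is known to lower it by removing FOXO1 from the nucleus.

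The mice were wild-type C57BL/6N males 10 weeks old except where stated and were trained to night-restricted feeding (NRF), with food offered at zeitgeber time (ZT) 12, when lights go off. In the NRF experiment, 2 mice each were taken at ZT10, after food at ZT14 (ZT14-fed), and without it at ZT14 (ZT14-unfed), and the libraries were depleted of ribosomal RNA. All other libraries were enriched for poly(A) RNA and came from livers taken at ZT14. In the injected mice, 4 per group, the groups were fed mice given PBS vehicle, dexamethasone (dex, 1 mg/kg, a synthetic GR agonist), S961 (44 nM per mouse in the labels, a peptide antagonist of the insulin receptor), or dex with S961, and unfed mice given vehicle. The 8 L-GRKO libraries came from unfed adults (C57BL/6N background, age in weeks and sex not given) with a floxed Nr3c1 (Nr3c1 fl/fl), 4 given AAV-CRE, in which the liver promoter Tbg drives Cre, and 4 controls given AAV-GFP. The 8 L-IRSdKO libraries came from mice with floxed Irs1 and Irs2 (Irs1 fl/fl, Irs2 fl/fl, C57BL/6J background, sex not given), 4 with Alb-Cre and 4 controls without it, and all 8 were fed and had received dex. The 12 obesity libraries came from C57BL/6 mice given a high-fat diet (DIO) or chow (lean) for 10 weeks from 5 weeks of age, followed by NRF, with 3 unfed and 3 fed mice per diet. GR and FOXO1 peaks of ZT14-unfed livers and DNase hypersensitive sites (DHSs) of ZT14 livers were lists of positions.

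Between 23127 and 26690 RefSeq IDs were above 0 per library, and Pearson's r of log2 values between mice of a group was between 0.937 and 0.992. The table holds no counts, and the steps between low RPKM values placed depth only roughly. Relative to ZT14-fed replicate 1, it was 0.895 to 1.34 in NRF, 0.224 to 1.21 in injected, and 0.582 to 1.16 in L-GRKO libraries. The L-IRSdKO libraries lay at 0.138 to 0.395 and the obesity libraries at 0.582 to 2.00. The paper lists read numbers of libraries, which were not used in the fits. The placed depths of the L-IRSdKO libraries did not follow those read numbers, which varied less. Floxed control replicate 4, placed lowest at 0.138, had the most reads of its group in the paper's list. The placed values therefore do not rank these libraries by depth. The hepatocyte markers Alb, Apoa1, Ttr, Serpina1c, and Cps1 summed to between 1892 and 73464 RPKM, and the 8 L-IRSdKO libraries (1892 to 2448 RPKM) lay below the other 46. Kupffer cell markers summed to 30.2 to 269 RPKM, endothelial markers to 11.0 to 47.1 RPKM, stellate markers to 30.6 to 120.4 RPKM, cholangiocyte markers to 0.858 to 5.92 RPKM, lymphocyte markers to 0 to 1.29 RPKM, adipocyte markers to 0 to 0.636 RPKM, kidney tubule markers to 0 to 0.087 RPKM, and pancreas markers to 5.07 to 28.7 RPKM, mostly Cela1. In bulk liver RNA, fewer cells of a type and less RNA per cell cannot be told apart. Nr3c1 was 14.2 ± 1.55 RPKM (SD, n = 4) in AAV-GFP livers and 4.41 ± 0.637 RPKM in AAV-CRE livers. Irs1 was 4.03 ± 1.22 RPKM in floxed controls and 0.199 ± 0.082 RPKM in L-IRSdKO livers, and Irs2 ranged from 0.614 to 5.61 RPKM and from 0.272 to 1.00 RPKM, which overlap.

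Pck1 was the most abundant member over all libraries, with a median of 935 RPKM (range 263 to 2498), and ranked 45th of all symbols by mean. Fbp1 followed at 605 RPKM (261 to 1019), then G6pc at 152 RPKM (29.5 to 507), Pcx at 126 RPKM (58.8 to 173), and Slc37a4 at 123 RPKM (56.1 to 205). The ranges of the last 3 overlapped throughout, so their order was not fixed. Pck2 was near the lower end of detection, at a median of 0.517 RPKM (0.146 to 3.41), and did not pass the filter at a mean of 0.5 RPKM in the NRF and injected mice. The widest range relative to the lowest value among the 5 abundant members was that of G6pc (17.2-fold), followed by Pck1 (9.48-fold), whereas Fbp1 (3.90-fold), Slc37a4 (3.65-fold), and Pcx (2.95-fold) moved less. These ranges span experiments of different library type and strain and include the L-IRSdKO experiment, whose scale differed. Without its 8 libraries, Fbp1 ranged from 362 to 1019 RPKM (2.82-fold) and Slc37a4 from 56.1 to 185 RPKM (3.30-fold), Pck2 stayed at or below 0.965 RPKM, and the lowest and highest values of Pck1, G6pc, and Pcx were the same. The share of Pck1 in the summed level of the members was 63.3% at ZT10. It was 62.0% in unfed mice at ZT14 and 32.0% in fed mice, where Fbp1 (45.2%) took its place as the most abundant member.

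**Figure D1:**
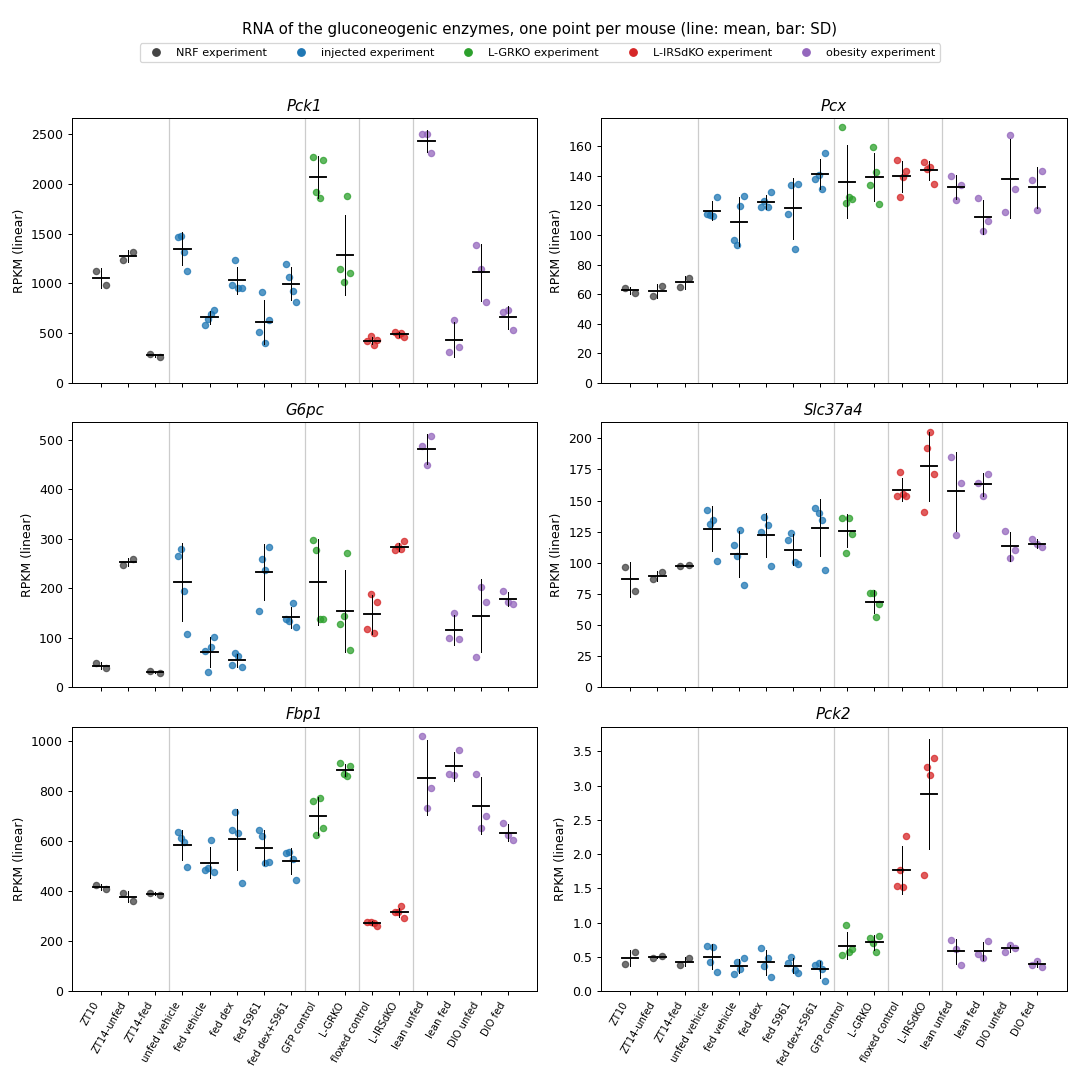
RPKM (linear axes, 1 panel per member) of the 6 members in each mouse, with 1 point per mouse, a horizontal line at the group mean, and a vertical bar for the SD, for the 16 groups of the 5 experiments. Pck1 lies between 263 and 2498 RPKM and G6pc between 29.5 and 507 RPKM, whereas Pck2 stays at or below 3.41 RPKM.

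Measured from the gene 5′ ends, the sites shared by GR and FOXO1 lay closest for Pck1 and G6pc. Positions are those of mm9, and a site is the interval covered by a GR and a FOXO1 peak that overlap by at least 1 base. Pck1 (chr2:172978549-172984774, plus strand) had 1 such site from 425 to 181 bases before its start, in intergenic sequence, and others 6.11 and 28.53 kb upstream, the farther in an intron of 1300015D01Rik. G6pc (chr11:101228875-101239217, plus strand) had 1 from 79 bases before to 123 bases after its GENCODE start, reaching into its first exon in that annotation. The RefSeq start of G6pc lies 155 bases downstream of the GENCODE start, so by RefSeq this whole site is upstream of the gene. Another site lay in intergenic sequence 5.15 kb upstream. The sites are shown with the stretch between the Pck1 site and the gene start, and the bases of the G6pc site after its GENCODE start are left out. Capitals mark ACANNNTGT (a spaced palindrome core bound by GR), TGTTTTG (a forkhead core of insulin-responsive promoters), TGTTTAC (a forkhead core), and TGACGT (the core of a cAMP response element, read ACGTCA on the other strand), searched on both strands, and all sequences are from the plus strand.
Pck1 site, chr2:172978124-172978368: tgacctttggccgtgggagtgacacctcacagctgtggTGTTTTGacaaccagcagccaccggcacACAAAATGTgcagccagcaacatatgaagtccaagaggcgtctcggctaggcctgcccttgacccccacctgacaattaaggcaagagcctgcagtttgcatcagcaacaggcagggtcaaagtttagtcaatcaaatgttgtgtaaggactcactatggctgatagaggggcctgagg
Pck1 from the site to the start, chr2:172978369-172978548: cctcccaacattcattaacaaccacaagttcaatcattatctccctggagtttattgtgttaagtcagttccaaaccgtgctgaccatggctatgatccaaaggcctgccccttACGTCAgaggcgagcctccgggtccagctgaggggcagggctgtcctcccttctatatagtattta
G6pc site up to the start, chr11:101228796-101228874: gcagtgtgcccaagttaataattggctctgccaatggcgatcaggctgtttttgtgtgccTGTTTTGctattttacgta
G6pc upstream site, chr11:101223613-101223833: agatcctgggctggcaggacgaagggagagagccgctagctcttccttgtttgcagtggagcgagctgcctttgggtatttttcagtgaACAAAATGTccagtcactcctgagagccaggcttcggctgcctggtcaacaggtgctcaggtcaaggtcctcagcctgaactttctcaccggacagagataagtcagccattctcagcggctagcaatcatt
In the Pck1 site the TGTTTTG began at base 39 and the spaced palindrome at base 67. The upstream G6pc site held a spaced palindrome at base 90, and in both sites it read ACAAAATGT. The G6pc site at the start held a TGTTTTG 19 bases before the GENCODE start, which is 174 bases before the RefSeq start. The TGACGT before Pck1 began 66 bases before the GENCODE start (91 bases before that of RefSeq) and lay outside the listed GR and FOXO1 peaks. Of all 10446 GR peaks, 20.3% held ACANNNTGT, 8.48% TGTTTTG, 7.29% TGTTTAC, and 3.38% TGACGT, and of all 8546 FOXO1 peaks 12.7%, 9.02%, 18.8%, and 3.86%. Near the members, the same letters were in 5, 2, 1, and 3 of 22 GR peaks and in 2, 4, 3, and 1 of 15 FOXO1 peaks. From 250 bases before to 50 bases after a start, other members matched too. Slc37a4 held the cAMP element core found before Pck1, at -214 bases from its GENCODE start. Pck2 held the forkhead core found near the G6pc start, at -159 bases from its own start. Fbp1 and Pcx held neither. Of 32851 such promoters, 7.51% held this cAMP element core and 6.28% this forkhead core. A match describes letters and is not a measured binding base.

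The other members had their shared sites farther from their gene 5′ ends. Fbp1 (chr13:62966113-62989642, minus strand) had intergenic sites 20.1 and 39.4 kb upstream, and the nearer held TGACGT. Pcx (chr19:4510472-4621752, plus strand) had a site 12.59 kb upstream, in an intron of 2010003K11Rik, which held TGTTTTG. Another 2 in introns of Pcx, 78.18 and 89.95 kb downstream, lay near its annotated start 83847 bases downstream and outside the 50 kb window used for peak counts. Slc37a4 (chr9:44205182-44211046, plus strand) had 1 site 1.13 kb after its start, in an exon at its second annotated start and without any of the 4 motifs. Pck2 (chr14:56159103-56168854, plus strand) had 1 intergenic site 37.67 kb downstream, also without a motif. Later annotated starts lie 83847 and 50 bases downstream of the 5′ end in Pcx, 15524 in Fbp1, 147 in Pck2, and 1077 in Slc37a4, where the later start lies within the shared site. The nearer Fbp1 site is shown for comparison with those of Pck1 and G6pc.
Fbp1 site, chr13:63009616-63009869: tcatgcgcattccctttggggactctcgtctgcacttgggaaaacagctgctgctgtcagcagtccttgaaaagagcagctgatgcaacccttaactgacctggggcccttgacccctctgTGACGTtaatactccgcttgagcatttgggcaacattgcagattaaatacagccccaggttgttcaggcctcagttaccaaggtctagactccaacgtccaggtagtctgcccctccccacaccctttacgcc

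Within 50 kb of the start, Pck1 had 7 GR peaks, 4 FOXO1 peaks, and 12 DHSs, and G6pc had 7, 3, and 12. Of 22089 placed genes, 0.860% had at least 7 GR peaks in this window. All 7 GR peaks of G6pc lay within 20 kb, a number reached by 0.0679% of genes. Fbp1 and Pcx had 3 GR peaks, 2 FOXO1 peaks, and 11 DHSs each, Pck2 had 1, 3, and 12, and Slc37a4 had 1, 1, and 9. At least 1 GR peak was within 50 kb of 32.8% of placed genes, and at least 1 FOXO1 peak of 34.6%. Measured from GENCODE starts, the nearest GR peak was 270 bases upstream for Pck1, 11 bases downstream for G6pc, and 1124 bases downstream for Slc37a4. It was 4797 bases downstream for Fbp1, 12633 bases upstream for Pcx, and 37641 bases downstream for Pck2. Each of the 6 members had at least 1 shared site within 50 kb (19.3% of placed genes), and 4 had one within 20 kb (10.0% of placed genes). All shares of placed genes include genes whether or not they are expressed in liver. Genes with RNA levels like those of the members were not compared. Of the 22 GR peaks near the members, 11 overlapped a FOXO1 peak and 18 a DHS. Over all GR peaks these shares were 48.8% and 81.6%. The lists carry no heights, so occupancy could not be compared between fed and unfed livers.

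**Figure D2:**
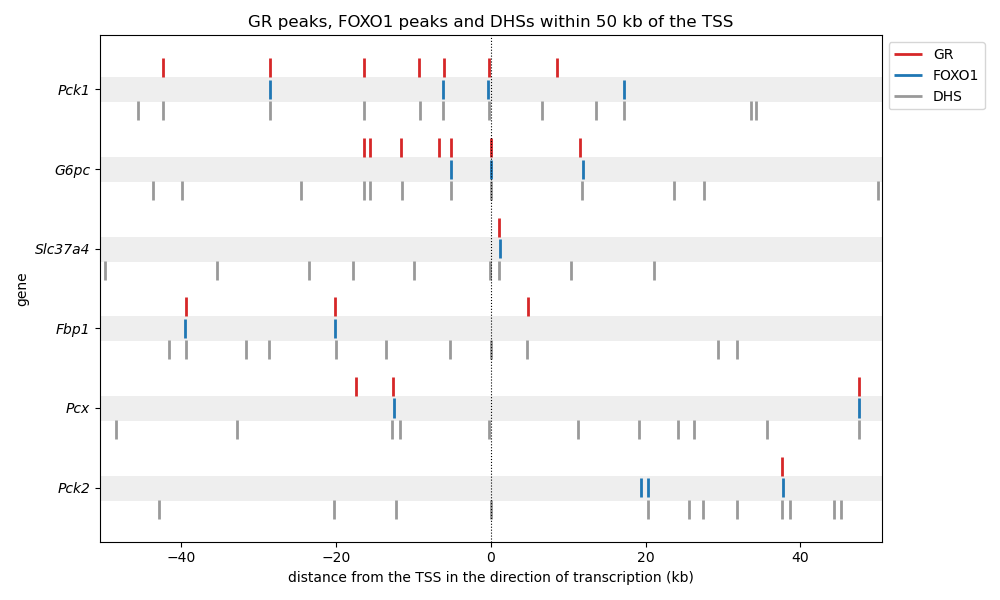
GR peaks, FOXO1 peaks, and DHSs by distance (kb) from the GENCODE start of each member, upstream to the left, within 50 kb. Pck1 and G6pc have 7 GR peaks each, including 1 at 270 bases upstream and 1 at 11 bases downstream, whereas Pck2 and Slc37a4 have 1 each.

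To follow the members across the onset of the active phase without food, ZT14-unfed was compared with ZT10. G6pc rose and no other member passed the threshold. G6pc was 48.0 and 38.6 RPKM at ZT10 and 247 and 258 RPKM at ZT14-unfed, a 5.84-fold rise of the mean (log2 fold change 2.54 ± 0.12, SE, limma BH-adjusted p = 5.09e-04). Pck1 was 1126 and 981 RPKM at ZT10 and 1233 and 1318 RPKM at ZT14-unfed (0.28 ± 0.10, limma adjusted p = 0.137). Its groups did not overlap, but the difference did not pass the threshold of 0.01. Fbp1 was 426 and 408 RPKM at ZT10 and 394 and 362 RPKM at ZT14-unfed (-0.14, limma adjusted p = 0.33), and Pcx and Slc37a4 overlapped between the groups. Thus, 1 of the 5 members tested passed, against 1.16% of all genes tested, and 3 of 6 members did not overlap, against 56.2% of all genes.

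After food, Pck1 and G6pc both fell. Pck1 was 289 and 263 RPKM at ZT14-fed, 0.217 of the ZT14-unfed mean (log2 fold change -2.21 ± 0.10, limma BH-adjusted p = 1.62e-04). G6pc was 31.8 and 29.5 RPKM, 0.121 of the unfed mean (-3.02 ± 0.12, limma adjusted p = 8.29e-05). The fed values of both genes lay below both ZT14-unfed and ZT10 values. Fbp1 (0.05), Pcx (0.13), and Slc37a4 (0.13) had limma adjusted p between 0.431 and 0.764. With 2 of 5 members passing, the share in all genes was 0.99%, and with 4 of 6 members not overlapping (Slc37a4 higher, Pck1, Pck2, and G6pc lower), the share in all genes was 59.7%. The 59.7% is over genes past the filter, which Pck2 did not pass. Of the 28 tested genes of a list of other gluconeogenic and glycolytic enzymes and transporters, none passed for the meal, and 2 passed between ZT10 and ZT14-unfed. These were Got1 (1.33, limma adjusted p = 0.00779), the cytosolic aspartate aminotransferase, and Slc2a2 (-0.95, limma adjusted p = 0.00838), the liver glucose transporter. The median log2 fold change of all genes was -0.10 and 0.12 in these comparisons and lay between -0.14 and 0.12 over all 16. Stellate markers summed to 50.52 to 62.9 RPKM at ZT10, 65.3 to 67.9 RPKM in unfed, and 51.4 to 57.9 RPKM in fed mice at ZT14, and hepatocyte markers to 30788 to 30901, 34446 to 35183, and 28534 to 31683 RPKM. The part of either list in the results was not tested.

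In the injected mice, the meal again lowered Pck1 and G6pc. Pck1 was 1468, 1472, 1319, and 1121 RPKM in unfed vehicle mice and 579, 643, 690.3, and 731 RPKM in fed vehicle mice (log2 fold change -1.02 ± 0.19, limma BH-adjusted p = 0.00794). G6pc was 266, 279, 194, and 107 RPKM in unfed mice and 72.0, 30.0, 80.6, and 101 RPKM in fed mice (-1.60 ± 0.33, limma adjusted p = 0.0139). All fed values of both genes lay below all unfed values, although for G6pc the lowest unfed mouse (107 RPKM) lay next to the highest fed mouse (101 RPKM). The 2 members passing of 5 tested compare with 3.13% of all genes, and the 2 of 6 not overlapping with 13.5%. The G6pc call was lost without unfed replicate 1 (-1.46, limma adjusted p = 0.0541) or 2 (-1.44, limma adjusted p = 0.0639). Kupffer markers summed to 35.8 to 45.1 RPKM in unfed and 49.4 to 77.6 RPKM in fed vehicle mice, and endothelial markers to 17.2 to 18.6 and 20.3 to 23.9 RPKM, and their part in the result was not tested. None of the 28 other pathway genes passed.

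Dex given before the meal was set against vehicle to follow the members in fed mice with GR activated. Pck1 was 985.0, 1236, 949, and 955 RPKM after dex, above every fed vehicle mouse (log2 fold change 0.64 ± 0.19, 1.56-fold by means), but the difference did not pass (limma BH-adjusted p = 0.0741). With a term for the library series or with the replicate number as a block, Pck1 passed (limma adjusted p = 0.0401 and 0.0308), as it did without S961 replicate 2 (0.0285) or 3 (0.0340), which share the estimate of the spread. G6pc was 44.4, 68.5, 62.3, and 40.1 RPKM after dex and overlapped vehicle (-0.30 ± 0.33, limma adjusted p = 0.683). Fbp1, Pcx, and Slc37a4 had log2 fold changes between 0.18 and 0.22. Thus, 0 of 5 members passed, against 3.19% of all genes, and 1 of 6 did not overlap, against 10.5%. Of the 28 other pathway genes, 3 rose after dex, namely the serine dehydratase gene Sds (1.44, limma adjusted p = 0.00349) and its relative Sdsl (0.98, limma adjusted p = 0.0288), and Got1 (1.07, limma adjusted p = 0.0304). Foxo1 mRNA also rose (0.42, limma adjusted p = 0.0121). Endothelial markers, at 20.3 to 23.9 RPKM with vehicle, summed to 11.2 to 19.4 RPKM after dex, 17.7 to 19.9 RPKM after S961, and 13.0 to 18.8 RPKM after both, and Kupffer markers, at 49.4 to 77.6 RPKM with vehicle, to 40.8 to 46.3 RPKM after both. The part of either list in the comparisons with fed vehicle mice was not tested.

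Blocking the insulin receptor with S961 raised G6pc in fed mice, and no other member passed. G6pc was 153, 258, 236, and 284 RPKM with S961, 3.28 times the vehicle mean and above every fed vehicle mouse (log2 fold change 1.80 ± 0.33, limma BH-adjusted p = 0.00830). Pck1 was 515, 914, 397, and 636 RPKM, with 2 of 4 values below every vehicle mouse and 1 above every vehicle mouse (-0.16 ± 0.19, limma adjusted p = 0.785). Fbp1, Pcx, and Slc37a4 overlapped vehicle, with log2 fold changes of 0.06 to 0.16. The 1 of 5 members that passed compares with 1.89% of all genes, and the 1 of 6 not overlapping with 6.48%. Among the 28 other pathway genes, Got1 (1.09, limma adjusted p = 0.0395) and Tkfc (0.49, limma adjusted p = 0.0241), the triokinase of fructose metabolism, rose.

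Set directly against each other, S961 and dex differed in opposite directions for these genes. Pck1 was lower with S961 than with dex in all mice (log2 fold change -0.80 ± 0.19, limma BH-adjusted p = 0.0119), and G6pc was higher with S961 in all mice (2.10 ± 0.33, limma adjusted p = 4.14e-04). The Pck1 call was lost without dex replicate 2 (-0.71, limma adjusted p = 0.0501). The 2 of 5 members passing compare with 7.45% of all genes, and the 2 of 6 not overlapping with 10.8%. Of the 28 other pathway genes, 4 were higher and 3 lower with S961, with the largest differences in Sds (-1.46), Gpd1 (1.21), the cytosolic glycerol phosphate dehydrogenase, and Slc16a1 (1.15), a lactate and pyruvate carrier. Foxo1 mRNA was lower with S961 than with dex (-0.55).

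When dex and S961 were given together, 2 members rose over vehicle. G6pc was 137, 135, 171, and 121 RPKM (log2 fold change 1.10 ± 0.33, limma BH-adjusted p = 0.0382), which lay above every vehicle mouse. Pcx was 138, 141, 131, and 155 RPKM, against 96.6, 93.4, 119.5, and 126 RPKM with vehicle (0.38 ± 0.12, limma adjusted p = 0.0468). Pck1 was 1194, 1064, 921, and 809 RPKM, also above every vehicle mouse (0.58 ± 0.19), and did not pass (limma adjusted p = 0.0571). After median-ratio scaling, which brings the median of all genes from -0.14 to -0.01, Pck1 passed (0.73 ± 0.20, limma adjusted p = 0.0282). With the replicate block or the library series term, 4 members passed, Pck1 (limma adjusted p = 0.0268 and 0.0363) and Slc37a4 (0.0466 and 0.0328) among them, where Slc37a4 was otherwise at 0.26 (limma adjusted p = 0.333). The 2 of 5 members that passed compare with 10.6% of all genes, and the 3 of 6 not overlapping with 17.1%. In the first library series alone (replicates 1 to 3), the log2 fold changes were 0.73 for Pck1 (limma adjusted p = 0.0481), 1.38 for G6pc (0.0134), and 0.41 for Pcx (0.0423). Without fed vehicle replicate 2, whose G6pc was the lowest of its group, the G6pc difference was 0.73 (limma adjusted p = 0.139), and the call was also lost without fed vehicle replicate 1 or any 1 of the 4 mice given dex with S961 (1.00 to 1.17, limma adjusted p from 0.0576 to 0.0881). The Pcx call was lost without any 1 of 13 of the 20 libraries (0.31 to 0.42, limma adjusted p from 0.0539 to 0.153) and held without fed vehicle replicate 3 or 4, dex replicate 4, S961 replicate 2, 3, or 4, or unfed vehicle replicate 4. Pck1 passed without S961 replicate 2 (limma adjusted p = 0.0210) or 3 (0.0242) or without dex with S961 replicate 4 (0.0490). Got1 (1.53, limma adjusted p = 0.00131) was the largest of 3 rises among the 28 other pathway genes, followed by Sds (0.86) and Gpt2 (0.54), a mitochondrial alanine aminotransferase. The mRNA of Foxo1 (0.66, limma adjusted p = 1.72e-04) and of Cebpb (1.11, limma adjusted p = 0.0366), a transcription factor of the fasted liver, rose.

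Against unfed vehicle mice, fed mice with dex and S961 differed in none of the 5 members tested, against 2.32% of all genes. Pck1 (log2 fold change -0.44 ± 0.19), G6pc (-0.50 ± 0.33), and Pcx (0.28 ± 0.12) had limma adjusted p of 0.355, 0.647, and 0.347. The Pcx groups did not overlap (131 to 155 RPKM against 113 to 126 RPKM), 1 of 6 members, against 10.6% of all genes. Got1 (1.06, limma adjusted p = 0.0393) was the 1 of 28 other pathway genes that passed, and Foxo1 mRNA was higher (0.36). The interaction of dex and S961 was 0.11 ± 0.27 for Pck1, -0.40 ± 0.47 for G6pc, and -0.36 ± 0.20 for Fbp1, and 0 of 5 members passed. By limma, 0 of 11248 genes passed for the interaction (0% of all genes), with 513 at an unadjusted p under 0.05. 

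**Figure D3:**
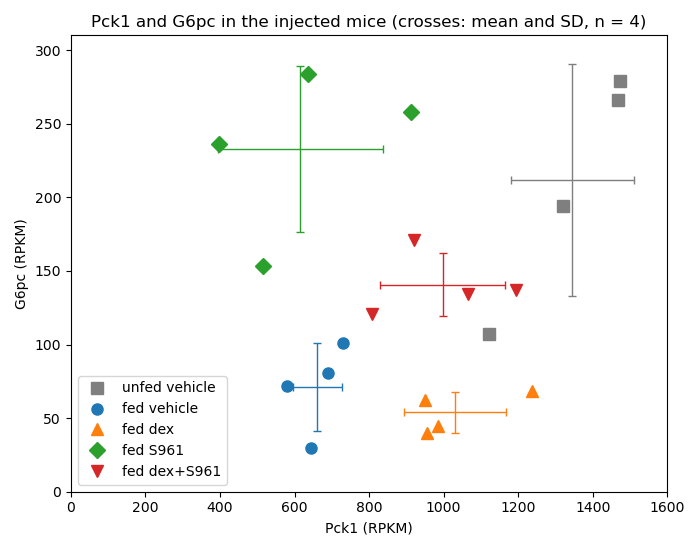
RPKM of G6pc (vertical axis) against RPKM of Pck1 (horizontal axis) in the 5 groups of injected mice, with 1 point per mouse and a cross at the group mean with its SD. After dex, Pck1 lies at 949 to 1236 RPKM, above the 579 to 731 RPKM of vehicle, and with S961 G6pc lies at 153 to 284 RPKM, above the 30.0 to 101 RPKM of vehicle.

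In unfed mice, loss of hepatic GR lowered Slc37a4 and Pck1. Slc37a4 was 136, 108, 136, and 123 RPKM in AAV-GFP livers and 75.6, 75.7, 56.1, and 66.7 RPKM in L-GRKO livers, 0.545 of the control mean (log2 fold change -0.87 ± 0.12, limma BH-adjusted p = 0.00218). All knockout values lay below all control values. Pck1 was 2266, 1918, 1857, and 2237 RPKM in controls and 1148, 1008, 1878, and 1106 RPKM in L-GRKO livers (-0.73 ± 0.18, limma adjusted p = 0.0389). L-GRKO replicate 3 reached the control range, and without it the difference was -0.92 ± 0.12 (limma adjusted p = 0.00375). Leaving out any 1 of the other 7 libraries ended the Pck1 call (-0.63 to -0.78, limma adjusted p from 0.0510 to 0.125), as did quantile normalization (-0.64, limma adjusted p = 0.0660). G6pc was 297, 276, 138, and 137 RPKM in controls and 129, 144, 271, and 74.7 RPKM in knockouts (-0.51 ± 0.37, limma adjusted p = 0.50), and L-GRKO replicate 3 was again the highest knockout. Fbp1 was higher in every L-GRKO liver (859 to 912 RPKM) than in every control (623 to 771 RPKM), without passing (0.34 ± 0.10, limma adjusted p = 0.0727), but passed after quantile normalization (0.39, limma adjusted p = 0.0342). Of the 6 members tested, 2 passed, against 6.68% of all genes, and 2 of 6 did not overlap, against 12.8%.

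Of the 28 other pathway genes, 2 rose and 4 fell in L-GRKO livers, with the largest falls in Sds (-1.71, limma BH-adjusted p = 5.60e-04), Got1 (-1.40, limma adjusted p = 0.00356), and Pfkfb1 (-1.36, limma adjusted p = 0.00449), whose enzyme makes and breaks the fructose bisphosphate that favors glycolysis over gluconeogenesis. Among 7 transcription factors known to act on the members, Cebpb (-0.65) fell and Cebpa (0.61) rose. Nr3c1, also on this list, fell by design as the gene targeted by Cre (-1.58, limma adjusted p = 6.83e-05). Stellate markers summed to 30.6 to 46.1 RPKM in controls and 44.2 to 62.1 RPKM in L-GRKO livers, and their part in the results was not tested.

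In fed mice that had received dex, loss of Irs1 and Irs2 raised G6pc and Fbp1. G6pc was 118, 189, 110.1, and 171 RPKM in floxed controls and 277, 285, 278, and 295 RPKM in L-IRSdKO livers (log2 fold change 0.98 ± 0.16, limma BH-adjusted p = 0.00670). All knockout values lay above all controls. Fbp1 was 276, 277, 272, and 261 RPKM in controls and 315, 316, 339, and 292 RPKM in knockouts (0.21 ± 0.06, limma adjusted p = 0.0340), also without overlap. Pck1 was 423, 467, 377, and 429 RPKM in controls and 513, 482, 500.1, and 457 RPKM in knockouts (0.21 ± 0.07, limma adjusted p = 0.0785), with overlap of 1 mouse of each group. Pck2 was 1.54, 1.77, 1.52, and 2.27 RPKM in controls and 1.69, 3.28, 3.15, and 3.41 RPKM in knockouts (0.55 ± 0.22, limma adjusted p = 0.119). The 2 of 6 members passing compare with 17.4% of all genes, and the 2 of 6 not overlapping with 21.7%. Without L-IRSdKO replicate 1, Pck2 (0.74, limma adjusted p = 0.0151) and Slc37a4 (0.25, limma adjusted p = 0.0426) passed as well, and the Fbp1 call held only without L-IRSdKO replicate 1 or 4 and was lost without any other library (0.18 to 0.22, limma adjusted p from 0.0640 to 0.0918).

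The scale of these 8 libraries differed from that of the others. Their highest value per library was 674 to 914 RPKM, against 18853 to 60597 RPKM in the other 46 libraries. Relative to the injected fed mice given dex, the median ratio was 2.19 for genes at 1 to 10 RPKM, 0.937 for genes at 100 to 500 RPKM, and 0.214 for genes at 1000 to 5000 RPKM. Accordingly, Pck1 was 424 RPKM in floxed controls and 1031 RPKM in injected dex mice. The cause was not tested. Kupffer markers summed to 116 to 214 RPKM in controls and 204 to 269 RPKM in knockouts, and endothelial markers to 28.3 to 31.0 and 37.4 to 47.1 RPKM, which did not overlap, and their part in the results was not tested. Of the 28 other pathway genes, 5 rose and 2 fell, led by the pyruvate kinase gene Pklr (-1.0, limma BH-adjusted p = 0.0136), Got1 (0.65, limma adjusted p = 0.00644), and Gpi1 (0.53, limma adjusted p = 0.00968), a glycolytic isomerase. Cebpa mRNA fell (-0.37).

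In lean mice of the obesity experiment, the meal lowered Pck1 and G6pc and no other member passed. Pck1 was 2495, 2498, and 2304 RPKM unfed and 313, 637, and 356 RPKM fed, 0.179 of the unfed mean (log2 fold change -2.55 ± 0.26, limma BH-adjusted p = 2.99e-04). G6pc was 487, 448, and 507 RPKM unfed and 98.6, 149.8, and 97.1 RPKM fed, 0.239 of the unfed mean (-2.09 ± 0.36, limma adjusted p = 0.00263). Neither gene overlapped between the groups. The other 4 members overlapped, so that 2 of 6 passed, against 10.2% of all genes, and 2 of 6 did not overlap, against 43.3%. The G6pc call at 0.01 was lost without lean unfed replicate 2 or 3 or lean fed replicate 1 or 3 (limma adjusted p from 0.0104 to 0.0126). Slc16a1 (0.67) and Gpd1 (0.66) were the 2 of 28 other pathway genes that passed, and Foxo1 (-1.23, limma adjusted p = 5.99e-04) and Cebpb (-1.88, limma adjusted p = 1.38e-04) fell while Cebpa (0.77) rose. Endothelial markers summed to 16.3 to 18.5 RPKM unfed and 11.7 to 12.1 RPKM fed, and stellate markers to 53.2 to 88.7 and 38.6 to 51.6 RPKM, and their part in the results was not tested.

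In DIO mice, no member passed for the meal. Pck1 was 1381, 1147, and 809.9 RPKM unfed and 712, 737, and 527 RPKM fed (log2 fold change -0.74 ± 0.26, limma BH-adjusted p = 0.106). G6pc was 60.3, 202, and 171 RPKM unfed and 194, 173, and 168.2 RPKM fed, and the fed values lay within the unfed range (0.48 ± 0.36, limma adjusted p = 0.442). Without DIO unfed replicate 1, the direction turned (-0.06 ± 0.17, limma adjusted p = 0.866). The 0 of 6 members passing compare with 1.22% of all genes, and the 2 of 6 not overlapping (Pck1 and Pck2, lower after food) with 27.8%. None of the 28 other pathway genes passed. The difference in the meal response between diets, tested as an interaction, was 1.82 ± 0.37 for Pck1 (limma adjusted p = 0.0525) and 2.56 ± 0.50 for G6pc (limma adjusted p = 0.0465). Neither passed the threshold of 0.01, and 0.131% of all genes did. DIO unfed replicate 1 held the lowest G6pc value of its group, and without it the interaction was 2.02 ± 0.23 (limma adjusted p = 0.00562).

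Without food, Pck1 and G6pc were lower in every DIO mouse than in every lean mouse, at log2 fold changes of -1.16 ± 0.26 (limma BH-adjusted p = 0.0310) and -1.91 ± 0.36 (limma adjusted p = 0.0155), which did not pass 0.01. Without DIO unfed replicate 1, G6pc passed (-1.37 ± 0.17, limma adjusted p = 0.00271). Thus, 0 of 6 members passed, against 0.77% of all genes, and 2 of 6 did not overlap, against 22.9%. Slc37a4 was 185, 122, and 164 RPKM in lean and 126, 104, and 110.0 RPKM in DIO mice (-0.46 ± 0.13, limma adjusted p = 0.0752). Cebpb mRNA was lower in DIO mice (-1.25, limma adjusted p = 0.00271). Endothelial markers summed to 11.0 to 13.7 RPKM in DIO unfed mice, below the lean unfed range, and hepatocyte markers to 45134 to 52338 RPKM against 52728 to 62215 RPKM in lean unfed mice. The part of these markers was not tested.

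After food, G6pc was higher in every DIO mouse than in every lean mouse (log2 fold change 0.66 ± 0.36, limma BH-adjusted p = 0.332), and Fbp1 (606 to 671 RPKM against 863 to 964 RPKM) and Slc37a4 (112 to 119 RPKM against 153 to 172 RPKM) were lower in every DIO mouse (-0.50 ± 0.14 and -0.50 ± 0.13, limma adjusted p = 0.107 and 0.106). Pck2 was also lower in every DIO mouse. None of the 6 members passed, nor did any gene (0% of all genes; 2283 at an unadjusted p under 0.05), and the 4 of 6 members not overlapping compare with 32.6% of all genes. Hepatocyte markers summed to 44041 to 46881 RPKM in DIO fed and 54291 to 58004 RPKM in lean fed mice, stellate markers to 52.2 to 60.8 and 38.6 to 51.6 RPKM, and endothelial markers to 12.2 to 13.1 and 11.7 to 12.1 RPKM. None of these ranges overlapped, and their part was not tested. The DIO comparisons with lean mice share their libraries with the meal comparisons.

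**Figure D4:**
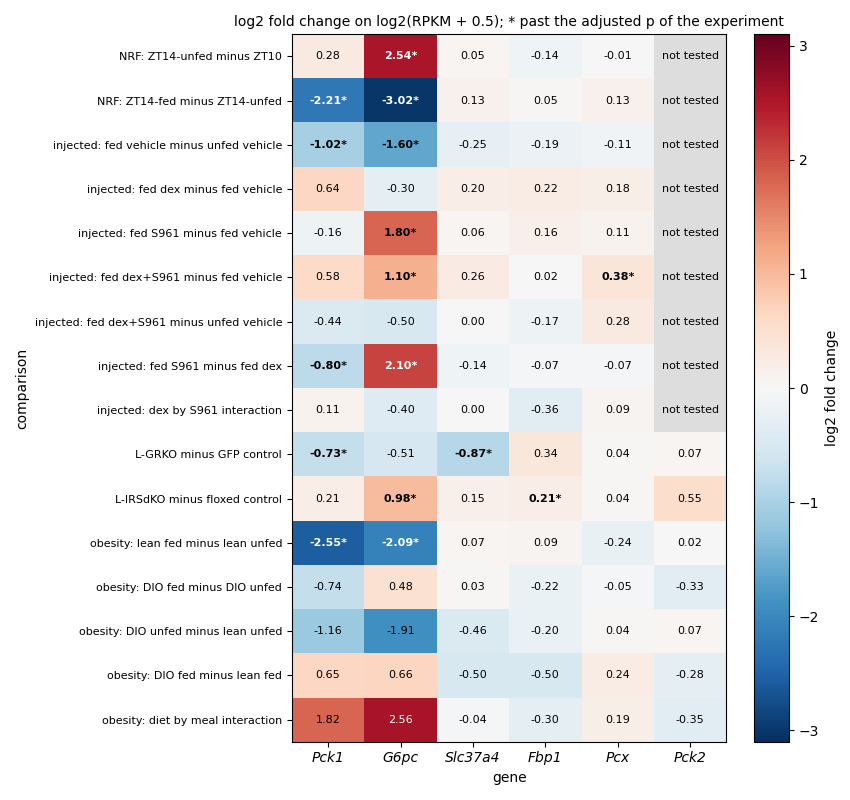
Log2 fold change on the log2(RPKM + 0.5) scale of each member (columns) in the 16 comparisons, interactions included (rows), with red for higher and blue for lower in the first-named group, an asterisk where the threshold was passed, and gray where a member was not tested. G6pc spans -3.02 to 2.56 and Pck1 -2.55 to 1.82, whereas Fbp1 lies between -0.50 and 0.34, Pcx between -0.24 and 0.38, and Slc37a4 between -0.87 and 0.26.

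Across the 16 comparisons, Fbp1, Pcx, and Slc37a4 each passed once, and Pck2 did not pass in any experiment in which it was tested. For correlations over the 54 libraries, the log2 values of each gene were first centered on its mean within each experiment. Pck1 and G6pc then correlated with Pearson's r = 0.50, as a description across mice that share experiments. Within experiments, r was lowest in the 20 injected mice (0.108) and was 0.648 in the 8 libraries of L-GRKO, 0.711 in the 6 of NRF, 0.717 in the 12 of obesity, and 0.876 in the 8 of L-IRSdKO. By the rule of highest r on the centered values among 10683 symbols, the genes most like Pck1 were Ip6k2 (0.923), Igfbp1 (0.879), Trp53inp1 (0.876), Slc7a2 (0.846), and Slc38a2 (0.830). Those most like G6pc were Angptl4 (0.807), Slc25a47 (0.806), Dnmbp (0.777), C9orf72 (0.765), and Cln8 (0.737). The 2 lists share no gene.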

How the data were processed

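RNA from 54 single-mouse livers was analysed as deposited RPKM values. The authors made the RPKM values on RefSeq transcripts from reads aligned with STAR (mm9). Peak and DHS positions were called by the authors with HOMER, per replicate for GR and FOXO1 (sites found in both replicates were kept) and on pooled DNase libraries. Of 35707 RefSeq IDs, 305 lacked a symbol and 35402 carried one, and the number of unused value columns was 0. No columns in any group were identical (0 pairs). The members and lists were chosen with earlier results of these data known. All 6 members are named in every comparison, and of the pathway list at most 3 genes with the largest changes past the threshold, with further genes given as counts. With limma 3.58.1 (R 4.3.3), each experiment had its own fit to log2(RPKM + 0.5), for symbols with a mean of at least 0.5 RPKM, with Benjamini-Hochberg (BH) adjustment over all genes tested. The thresholds were an adjusted p of 0.01 (NRF and obesity) or 0.05. SE is that of the fitted log2 fold change, and groups are called not overlapping where all values of one lie above all values of the other. The share of all genes not overlapping is over genes past the filter, whereas members not overlapping are counted over all 6. Replicates are single mice. Intervals were handled in Python 3.11.15 with pandas 2.3.3 and pysam 0.24.0, with GENCODE starts on mm9 and a window of 50 kb. Tested on simulated data with 200 genes changed in each experiment, changes of 1 (log2) were found for 20.5% of genes in the NRF, 83% in the injected, 81% in the L-GRKO, 64.5% in the L-IRSdKO, and 70.5% in the obesity design. Of the calls, between 0% (NRF) and 6.74% (injected) were false. The simulated mice deviated independently, unlike same-numbered injected mice, so the injected values may not hold for the real data. The fits were repeated with quantile normalization or median-ratio scaling, with pseudocounts of 0.1 or 1, with a filter at 2 RPKM or none, without the variance trend, on all RefSeq IDs, with the compared groups alone, with a term for the library series or the replicate number, without each library, and other peak windows, overlaps, and widths. The first library series alone (injected replicates 1 to 3, a split that the sample titles do not name) was added after the data were seen. Labels and methods differ on the GR antibody, the S961 dose, and when AAV was given, and 1 group label spells S961 as S965. The sequence of 1 site near a member is not reported here.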

Additional observations from a re-analysis of the deposited data

Results flagged for a closer look

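In groups of 4 mice, the distance of the most extreme mouse from its nearest neighbor was compared with the group's range by Dixon's criterion, over 54 combinations of member and group. In 7 of these, 1 mouse stood apart, where chance gives about 1 in 20. Pck1 was 1235.8 RPKM in fed dex replicate 2, with the other 3 mice at 949 to 985.0 RPKM. Pck1 was 1878 RPKM in L-GRKO replicate 3, with the others at 1008 to 1148 RPKM, and this mouse also had the highest G6pc of its group. Pck2 was 1.689 RPKM in L-IRSdKO replicate 1, with the others at 3.15 to 3.41 RPKM. Fbp1 was 604.4 RPKM in fed vehicle replicate 3, with the others at 475 to 491 RPKM. Pcx was 125.7 RPKM in unfed vehicle replicate 4, with the others at 113 to 114 RPKM, and 173.2 RPKM in AAV-GFP replicate 1, with the others at 122 to 126 RPKM. Slc37a4 was 172.7 RPKM in floxed control replicate 2, with the others at 154 to 155 RPKM.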

How the results depend on the processing

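No member result past its threshold changed sign. Of 170 such results under other settings, 152 kept their side of the threshold and 18 did not, and of 214 with 1 library left out, 175 did and 39 did not. The number of members passing for dex with S961 against vehicle was 2, and became 0 without the filter or after quantile normalization, 1 without the variance trend or with the compared groups alone, and 4 with the library series as a term (Pck1, G6pc, Pcx, and Slc37a4). With the compared groups alone, 1 member passed for fed against unfed vehicle, 0 for S961 against vehicle, and 1 for S961 against dex. The library series term gave 1 for dex against vehicle. For L-GRKO and L-IRSdKO, where 2 passed, 1 passed without the filter or without the variance trend, and 1 after median-ratio scaling for L-IRSdKO. After quantile normalization the number for L-GRKO stayed at 2, with Fbp1 in place of Pck1. With the first library series alone, chosen after seeing the data, 3 passed for dex with S961 against vehicle.

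Same-numbered mice deviated together (r over 0.1) in 0 of 6 pairs in the NRF and 27 of 40 in the injected experiment. This held for 1 of 4 pairs in the L-GRKO, 0 of 4 in the L-IRSdKO, and 3 of 18 in the obesity experiment. The main fits did not pair samples by number. That includes the injected mice, where most such pairs deviated together (r up to 0.606) and calls depended on this choice. In the injected mice, replicate 4 of each group was set as the later library series by assumption, because the sample titles do not name a series. With the replicate block, 1 member passed for dex against vehicle, 4 for dex with S961 against vehicle, 1 for L-GRKO (Slc37a4), and 1 for L-IRSdKO (G6pc), and the block changed no other count.

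With each library left out in turn, the number passing ranged from 1 to 2 for fed against unfed vehicle, 0 to 1 for dex, 0 to 3 for dex with S961 against vehicle, 1 to 2 for S961 against dex, 1 to 2 for L-GRKO, 1 to 4 for L-IRSdKO, 1 to 2 for the meal in lean mice, and 0 to 1 for DIO against lean unfed mice and for the diet by meal interaction. Within 100 kb there were 34 GR peaks (22 within 50 kb) and 121 DHSs (67), and within 20 kb 9 FOXO1 peaks (15) and 29 DHSs. Widened by 100 bases on each side, 4 GR peaks held TGTTTTG (2 as listed) and 2 FOXO1 peaks TGACGT (1 as listed). The causes were not tested. With 2 to 4 mice per group and no counts in the table, differences of the size of the standard errors given were not detectable.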
